A study of Mus musculus with 12 samples.

Results

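The account that follows describes how brown fat lacking the fatty acid import enzyme Cpt2 in its adipocytes responded to a β3-adrenergic agonist. It rests on 6 of the 12 arrays of the series, 3 from knockout mice given CL316243 and 3 from knockout mice given saline. The comparison ran over every gene with an array row of its own, 20259 genes in all, of which 15896 were bright enough to be tested. The knockouts carried floxed Cpt2 alleles and adiponectin-Cre (adiponectin-Cre;Cpt2f/f), on a C57BL/6 background. They received 10 mg/kg CL316243 or saline by intraperitoneal injection. Wild-type controls (Cpt2f/f, floxed alleles without Cre) received the same 2 injections, 3 mice each, and enter below where the responses of the genotypes are set side by side. All 12 mice were female, 12 weeks old and kept for 2 weeks at 30 °C, a temperature that lowers the sympathetic drive to brown fat, and interscapular brown fat was taken 3 h after the injection.

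CL316243 binds the β3-adrenergic receptor of adipocytes. The receptor raises cAMP through the stimulatory G protein and adenylyl cyclase, and protein kinase A then drives lipolysis at the lipid droplet and transcription through CREB-family factors. In brown fat the classic targets are Ppargc1a, the coactivator of mitochondrial and thermogenic genes, and Ucp1, the protein that uncouples respiration to make heat. The fatty acids set free are both the fuel of that heat and signals for nuclear receptors. Cpt2, on the inner mitochondrial membrane, completes the entry of long-chain fatty acids for oxidation, so adipocytes without it release fatty acids that they cannot oxidise in mitochondria by that route. Adiponectin-Cre acts in adipocytes, and the other cells of the tissue keep Cpt2.

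Each array reports log2 signals from the RNA of 1 mouse. Cpt2 itself had signals of 7.91, 7.87 and 7.92 in the CL316243 arrays of knockouts, against 8.06, 8.20 and 8.06 in their saline arrays, a difference of -0.21 ± 0.096 (log2, standard error of the fit, n = 3 per group, adjusted p = 0.156). All 6 lay under the 6 wild-type arrays (8.60, 8.83 and 8.52 after CL316243 and 8.83, 8.99 and 8.75 after saline). Where the Cpt2 probes lie with respect to the floxed sequence is not given in the sources used here. The mean log2 signal of 7 adipocyte markers was 11.12, 10.94 and 10.93 in the CL316243 arrays and 10.90, 10.92 and 10.83 in the saline arrays, and Adipoq, the gene whose promoter drives the Cre, was not called (12.22, 12.07 and 12.03 against 12.34, 12.31 and 12.36, -0.23 ± 0.11, adjusted p = 0.173). Saline array 1 differed from the other saline arrays in Ucp1 (8.39, against 12.29 and 11.47 in saline arrays 2 and 3) and in skeletal muscle. The mean log2 signal of 12 muscle markers was 10.78, 9.02 and 10.80 in the CL316243 arrays and 7.25, 10.45 and 10.40 in the saline arrays, and the median muscle difference of 0.95 became -0.23 without saline array 1. No muscle marker was called. CL316243 array 2 had the highest mean of the B-cell and plasma-cell markers (6.82, against 5.73 and 5.91 in the other CL316243 arrays and 6.00 to 6.41 after saline). These are bulk samples, in which fewer cells of a type and less RNA per cell cannot be told apart.

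Knockout brown fat responded broadly to the agonist. With limma's moderated test and Benjamini-Hochberg adjustment over all tested genes, 2851 genes (17.9%) were called at an adjusted p under 0.05. Of these, 1232 were higher (7.75% of the tested genes) and 1619 lower (10.2%). In 6396 genes (40.2%) the 3 CL316243 and 3 saline signals of knockouts did not overlap, a share against which the statements on overlap below can be read. By at least 2-fold, 176 genes were higher (1.11%) and 57 lower (0.359%). The median difference over all tested genes was -0.057 on the log2 scale. The balance of rises and falls depends on the scaling, since 43.2% of the calls were rises as deposited, 58.8% (1491 rises and 1043 falls) with every array centred on its median and 51.9% (1378 and 1278) after quantile normalization. Leaving out 1 knockout array changed the number of calls to between 1591 (without CL316243 array 1) and 2041 (without CL316243 array 2), with 1707 left without saline array 1 and 1730 without CL316243 array 3. The first principal component of the 6 knockout arrays held 50.5% of the variance. Scores on it were 27.1, 13.0 and 23.6 after CL316243 and -31.7, -15.1 and -16.9 after saline, so the groups did not overlap on it. The genes described below kept their knockout call without each of the knockout arrays unless stated. For calls of the difference between genotypes, stability is given below by their number only and not gene by gene.

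The largest rise was that of Prg4, which encodes lubricin, a secreted glycoprotein that coats joint surfaces. Its signal was 9.92, 10.29 and 10.22 in the CL316243 arrays, against 6.98, 6.68 and 6.66 in the saline arrays. The groups stood far apart, with a 10.4-fold rise (3.37 ± 0.14, adjusted p = 7.12e-07). Ppargc1a was at 9.76, 9.84 and 9.84 after CL316243 and 6.70, 7.87 and 6.97 after saline. Hilpda, a lipid droplet protein that inhibits the lipase of triglyceride breakdown, was at 9.54, 9.63 and 9.14 after CL316243, against 7.08, 7.16 and 6.95 after saline, and rose 5.18-fold (2.37 ± 0.14, adjusted p = 1.95e-05). At the other end, Aplnr, the receptor of the peptide apelin, was at 7.17, 6.69 and 7.41 after CL316243 and 9.43, 9.11 and 9.22 after saline. Its groups also stood apart, with a 4.48-fold fall (-2.16 ± 0.20, adjusted p = 1.39e-04).

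**Figure D1:**
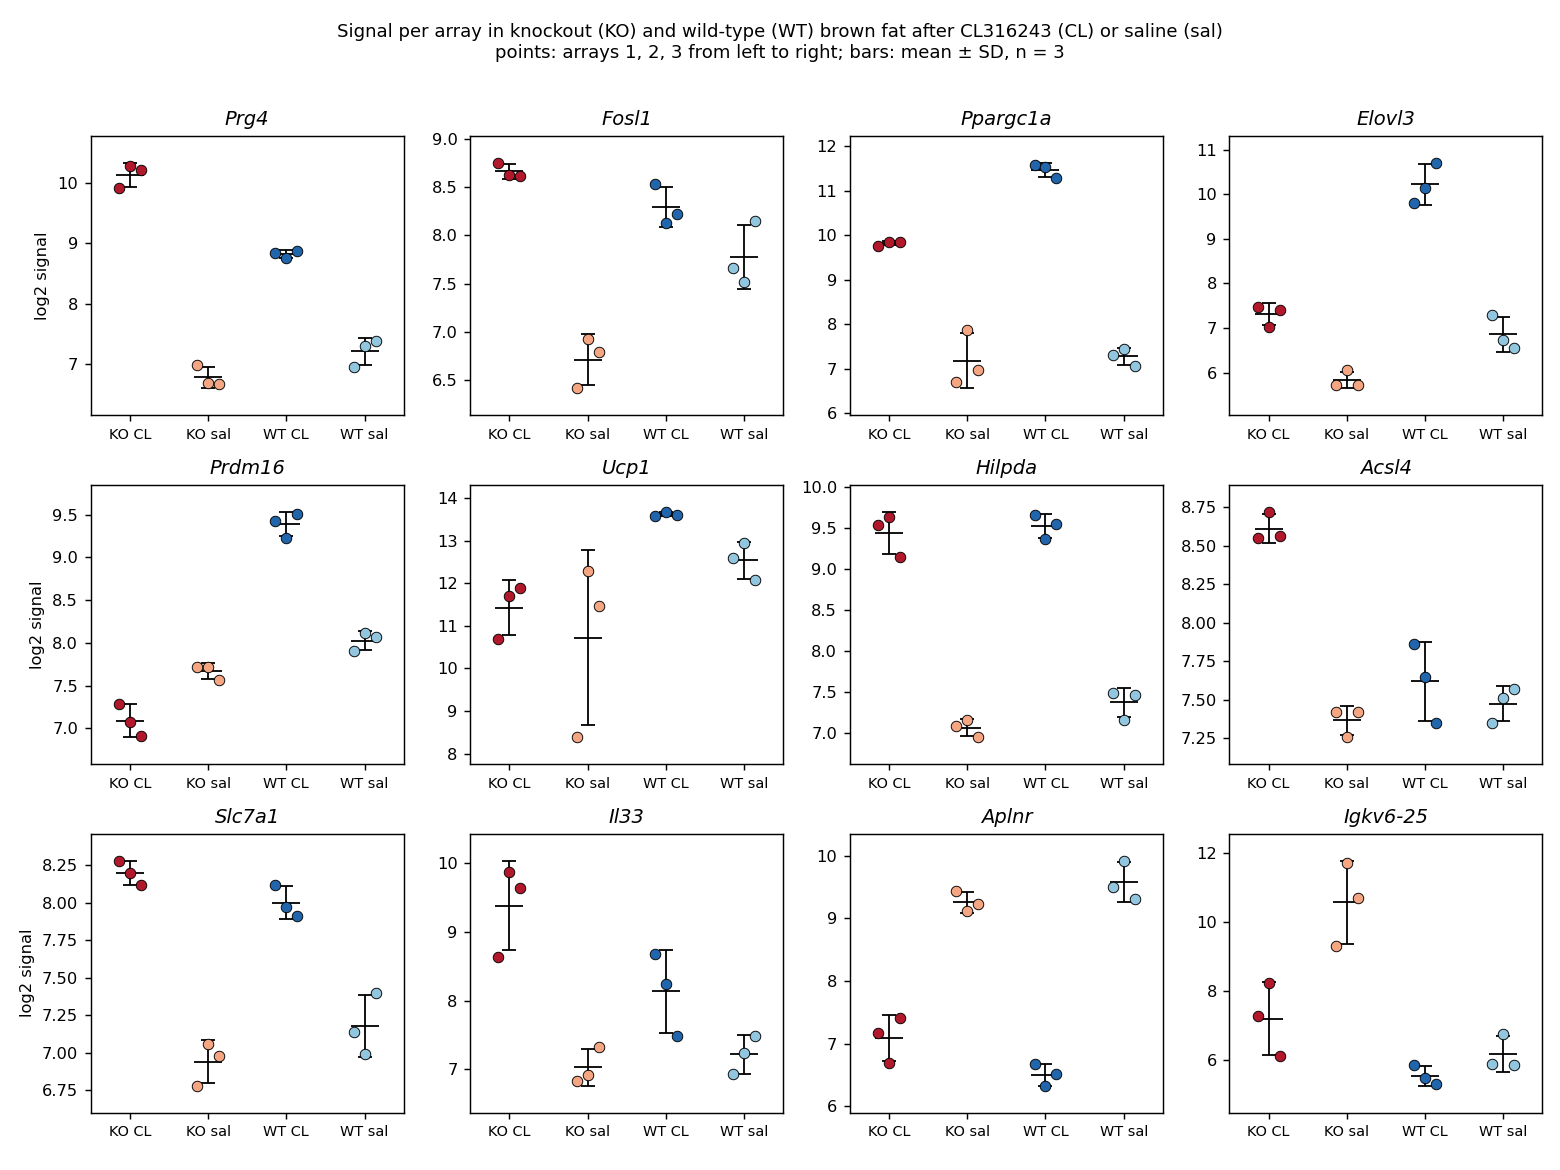
Log2 signal (vertical axes, each with its own range) of 12 genes in the 4 groups, with 1 point per array and the mean ± SD of 3 arrays. Prg4 was at 9.92 to 10.29 in knockouts after CL316243 and at 6.66 to 6.98 after saline, while the knockout saline arrays of Ucp1 spread from 8.39 to 12.29.

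Among the genes of the receptor pathway itself, members that limit the signal moved in both directions. Of 26 tested genes of β-adrenergic and cAMP signalling, 5 rose (19.2%, against 7.75% of all genes) and 4 fell (15.4%, against 10.2%). Their median difference was 0.010 (all tested genes -0.057). Akap12, a scaffold that holds protein kinase A near the β-adrenergic receptor, was at 9.70, 9.47 and 9.41 after CL316243 and 7.85, 8.09 and 7.83 after saline, a rise of 1.60 ± 0.14 (adjusted p = 1.39e-04) with no overlap. Pde4d, a phosphodiesterase that degrades cAMP, rose by 0.77 ± 0.12, and the cyclases Adcy4 (0.63 ± 0.082) and Adcy3 (0.38 ± 0.095) and the receptor kinase Grk5 (0.44 ± 0.098) rose with smaller differences. Rgs2, which shortens G-protein signals, was at 7.53, 7.91 and 7.97 after CL316243 and 8.86, 9.90 and 9.46 after saline, a fall of 1.60 ± 0.31 on the log2 scale (adjusted p = 0.0065). The other falls were those of the catalytic subunit Prkaca (-0.56 ± 0.12) and the arrestins Arrb1 (-0.45 ± 0.095) and Arrb2 (-0.42 ± 0.12), adaptors that uncouple receptors. The calls of Adcy3 and Arrb2 were lost when single arrays were left out (highest adjusted p = 0.0735 and 0.111). The β3 receptor gene Adrb3 had no row assigned to it alone, so its level is not given here.

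Immediate-early and cAMP-responsive transcription factors rose in part, and not all of the classic ones did. Of 35 tested members, 14 rose (40%, against 7.75% of all genes) and 1 fell (2.86%, against 10.2%), with a median of 0.24. When single knockout arrays were left out, 10 to 16 rose. Nfil3, a leucine zipper repressor, rose most, with 9.33, 8.89 and 8.93 after CL316243 and 6.75, 7.09 and 6.88 after saline (2.14 ± 0.15, adjusted p = 3.90e-05). Fosl1, a Fos relative that pairs with Jun proteins in the AP-1 factor, was at 8.75, 8.63 and 8.61 after CL316243, against 6.42, 6.93 and 6.79 after saline. It rose 3.87-fold (1.95 ± 0.18), without overlap. The C/EBP factors Cebpd (1.28 ± 0.15) and Cebpb (0.71 ± 0.15), the small Maf protein Maff (1.27 ± 0.15), the zinc finger factor Klf4 (0.86 ± 0.16) and Myc (0.87 ± 0.18), a driver of cell growth, rose too. Nr4a3, an orphan nuclear receptor, was at 8.96, 8.83 and 8.95 after CL316243 and 6.52, 8.48 and 7.43 after saline (1.44 ± 0.36, adjusted p = 0.0188, up to 0.0597 without single arrays). Its relative Nr4a1 was not called, at 8.19, 8.29 and 8.41 after CL316243 and 7.33, 9.56 and 8.75 after saline, and its difference of -0.25 ± 0.40 became 0.25 without saline array 2 and -0.86 without saline array 1 (adjusted p = 0.0243). Egr3, a zinc finger factor, was the 1 member that fell, by 1.17 ± 0.29 on the log2 scale, and lost its call without single arrays (adjusted p up to 0.0704). The same holds for Atf3 (0.68 ± 0.18, up to 0.0926).

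Feedback inhibitors of MAP kinases and stress-linked growth arrest genes rose alongside. Of 21 tested genes of the dual-specificity phosphatase and MAP kinase list, 9 rose (42.9%, against 7.75% of all genes) and 2 fell (9.52%, against 10.2%). The median was 0.24, and the number of rises was 6 to 8 when single knockout arrays were left out. Gadd45g, which binds stress kinases upstream of p38, was at 9.87, 9.70 and 9.65 after CL316243 and 7.52, 8.93 and 8.22 after saline (1.51 ± 0.31). The phosphatases Dusp10 (1.09 ± 0.19) and Dusp16 (0.96 ± 0.11), which inactivate stress-activated kinases, rose, as did the growth factor signalling inhibitor Spry4 (0.91 ± 0.15). Among 22 cell cycle genes the kinase Plk3 (1.36 ± 0.20) and the inhibitor Cdkn1a (0.99 ± 0.19), both induced by stress, rose and the inhibitor Cdkn1b fell (-0.72 ± 0.10). In the cell cycle list 9.09% rose and 4.55% fell (7.75% and 10.2% of all genes), and its median was -0.04.

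The thermogenic program responded in part. Of 25 tested thermogenic and brown adipocyte genes, 5 rose (20%, against 7.75% of all genes) and 6 fell (24%, against 10.2%), with a median of -0.13. Ppargc1a rose 6.22-fold (2.64 ± 0.24, adjusted p = 1.39e-04). Elovl3, whose product lengthens fatty acids during brown fat recruitment, was at 7.48, 7.03 and 7.41 after CL316243, against 5.73, 6.05 and 5.73 after saline, a rise of 1.47 ± 0.24. The circulating hormone gene Fgf21 rose (6.91, 7.20 and 6.87 against 6.10, 6.09 and 5.91, 0.96 ± 0.11), and Clstn3 (0.47 ± 0.14) and Zfp516 (0.28 ± 0.083) were called as higher by smaller differences. Prdm16 and Ebf2, transcription factors of brown adipocyte identity, were lower. Prdm16 was at 7.29, 7.07 and 6.91 after CL316243 and 7.72, 7.72 and 7.56 after saline (-0.58 ± 0.11, adjusted p = 0.0065), and Ebf2 was at 7.13, 7.10 and 7.21 after CL316243, against 7.82, 7.86 and 7.69 (-0.65 ± 0.089). Neither overlapped between the groups, although the mean of the several rows of Prdm16 gave -0.21 (adjusted p = 0.257).

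The remaining falls in the thermogenic list were smaller or less stable. Cidea, a droplet protein of brown adipocytes, differed by -0.91 ± 0.26 and the potassium channel gene Kcnk3 by -0.49 ± 0.14, while the nuclear receptor Esrra (-0.37 ± 0.11) and the brown fat marker Zic1 (-0.36 ± 0.098) differed by less. All 4 lost their call without single arrays (adjusted p up to 0.121, 0.111, 0.113 and 0.110 in that order), and the calls of Clstn3 and Zfp516 were lost likewise (0.126 and 0.154). Ucp1 was at 10.69, 11.70 and 11.90 after CL316243, against 8.39, 12.29 and 11.47 after saline. The groups overlapped, the difference was 0.71 ± 0.76 (adjusted p = 0.585), and without saline array 1 it was -0.45. Dio2, the deiodinase that activates thyroid hormone, behaved likewise, at 7.80, 8.13 and 8.63 after CL316243 and 6.43, 9.02 and 7.81 after saline (0.43 ± 0.48, and -0.23 without that array). When single knockout arrays were left out, 3 or 4 members of the list rose, and 5 fell without saline array 1, 2 without CL316243 array 1 or saline array 2 and 3 without any other. The list median was -0.28 without saline array 1 and -0.043 without saline array 2. With all arrays centred on their medians, 5 rose and 3 fell.

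Genes of the lipid droplet and of triglyceride handling changed in both directions. Of 21 tested members, 8 rose (38.1%, against 7.75% of all genes) and 5 fell (23.8%, against 10.2%), with a median of 0.10. Besides Hilpda, Gpat3, which adds the first acyl chain in triglyceride synthesis, was at 9.51, 9.26 and 9.26 after CL316243 and 7.57, 7.92 and 7.32 after saline (1.74 ± 0.14, adjusted p = 1.07e-04). The droplet coats Plin4 (0.91 ± 0.11) and Plin2 (0.89 ± 0.12), the acyltransferase Dgat1 (0.77 ± 0.17), the lipase activator Abhd5 (0.61 ± 0.076), the droplet protein Cidec (0.62 ± 0.15) and the monoglyceride lipase Mgll (0.45 ± 0.11) rose as well. The second triglyceride acyltransferase, Dgat2, moved against Dgat1, with 9.53, 10.11 and 9.84 after CL316243 and 11.22, 10.59 and 10.73 after saline (-1.02 ± 0.21). G0s2, an inhibitor of the lipase Atgl, was at 7.97, 7.96 and 7.91 after CL316243 and 9.21, 9.53 and 9.02 after saline (-1.31 ± 0.32, adjusted p = 0.0183). The glycerol channel Aqp7 (-0.50 ± 0.12), the coat Plin3 (-0.40 ± 0.11) and Cidea were the other falls. The list had 6 rises and 1 fall without CL316243 array 1, and 8 rises and 2 falls without CL316243 array 3 or saline array 2. G0s2, Cidec, Mgll, Aqp7 and Plin3 lost their calls without single arrays (adjusted p up to 0.0610, 0.0743, 0.0729, 0.0644 and 0.0820).

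Among 17 genes of fatty acid uptake and activation, Acsl4 alone was called (5.88% higher, against 7.75% of all genes). It activates long polyunsaturated fatty acids, arachidonate above all, to their CoA esters. Its signal was 8.55, 8.72 and 8.56 after CL316243, against 7.42, 7.26 and 7.42 after saline, with no overlap and a 2.37-fold rise (1.24 ± 0.12, adjusted p = 1.92e-04). The lipoprotein lipase inhibitor Angptl4 was at 10.65, 10.66 and 10.56 after CL316243 and 8.89, 10.62 and 10.01 after saline (0.78 ± 0.33, adjusted p = 0.125, and 0.0197 without saline array 2).

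No tested gene of the list of fatty acid oxidation in mitochondria was called as higher after the agonist, where 7.75% of all genes were. Of 21 tested genes of the carnitine shuttle and mitochondrial β-oxidation, 7 fell (33.3%, against 10.2% of all genes), with a median of -0.30. The thiolase Acaa2, the last step of the spiral, was at 9.03, 9.48 and 9.55 after CL316243 and 9.79, 10.62 and 10.22 after saline (-0.86 ± 0.20, adjusted p = 0.0132). Acadm, the medium-chain dehydrogenase, was at 9.31, 9.35 and 9.42 after CL316243, against 9.75, 10.01 and 9.82 (-0.50 ± 0.11), and Hadh fell by 0.50 ± 0.10 on the log2 scale. The isomerase Eci1 (-0.77 ± 0.19), the electron carrier Etfb (-0.51 ± 0.14), the reductase Decr1 (-0.43 with a highest adjusted p of 0.150 without single arrays) and the hydratase Echs1 (-0.43, up to 0.132) made up the rest. The count rests on single arrays: 10 members were lower without saline array 1, where the median was -0.49, but 2 without CL316243 array 1, and 4 without each of the other knockout arrays. The median was -0.16 without saline array 2. With all arrays centred on their medians 4 members fell. The mean log2 signal of the list was 8.81, 8.84 and 8.84 in the CL316243 arrays and 8.90, 9.44 and 9.12 in the saline arrays, highest in saline array 2, which also had the highest Ucp1 signal. Acaa2, Eci1 and Etfb lost their calls without single arrays (adjusted p up to 0.0555, 0.0515 and 0.0943).

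A few peroxisomal and thioesterase genes were called, in both directions. Acot4, a peroxisomal thioesterase, rose (7.83, 8.15 and 8.08 after CL316243, against 7.04, 7.24 and 6.71 after saline, 1.03 ± 0.17). It was the 1 rise among 20 tested members of the list (5%, against 7.75% of all genes), of which 5 fell (25%, against 10.2%). Without saline array 1 there were 3 falls, without CL316243 array 1 there was 1, and without each of the others there were 2. Acox3, a peroxisomal acyl-CoA oxidase, fell by 0.59 ± 0.094 on the log2 scale (0.39 and not called with the mean of its rows). Ehhadh, the bifunctional enzyme of peroxisomal oxidation, was at 6.80, 6.80 and 6.68 after CL316243 and 7.38, 7.69 and 7.04 after saline (-0.61 ± 0.18, adjusted p = 0.0357). Ehhadh and the other falls, in Acot11 (-0.72 ± 0.21), the carnitine octanoyltransferase Crot (-0.57 ± 0.14) and Acot13 (-0.55 ± 0.17), lost their calls without single arrays (adjusted p up to 0.118, 0.134, 0.0730 and 0.156).

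The pyruvate dehydrogenase switches, the tricarboxylic acid cycle and the respiratory chain had few calls. In the pyruvate dehydrogenase list 3 of 14 genes were lower (21.4%, against 10.2% of all genes). They were the phosphatase Pdp2, which switches the complex on, and the kinases Pdk2 and Pdk1, which switch it off. Without single knockout arrays 2 members of the list or fewer were lower, and none was without saline array 2. Pdp2 was at 7.48, 7.71 and 7.89 after CL316243 and 8.38, 8.61 and 8.15 after saline (-0.69 ± 0.16, adjusted p = 0.0138), a call lost without single arrays (up to 0.0596), as were those of Pdk2 (-0.48 ± 0.14, 0.117) and Pdk1 (-0.36 ± 0.11, 0.159). Pdk4, the kinase that rises in fasting, was at 12.17, 12.18 and 12.27 after CL316243, against 10.31, 12.58 and 11.95 after saline, and was not called (0.59 ± 0.41, adjusted p = 0.366, and -0.061 without saline array 1). Of 16 cycle genes Idh2 alone fell (-0.52 ± 0.10, 6.25% of the list), at a list median of -0.26, and 6 fell without saline array 1. Of 36 respiratory chain subunits, Cox5b, Atp5c1, Ndufb10 and Ndufs8 fell, which is 11.1% against 10.2% of all genes. That list had a median of -0.24, with 11 falls without saline array 1 and none without CL316243 array 1, CL316243 array 3 or saline array 2. The medians of the cycle and respiratory chain lists were -0.40 and -0.38 without saline array 1, and -0.14 and -0.12 without saline array 2.

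**Figure D2:**
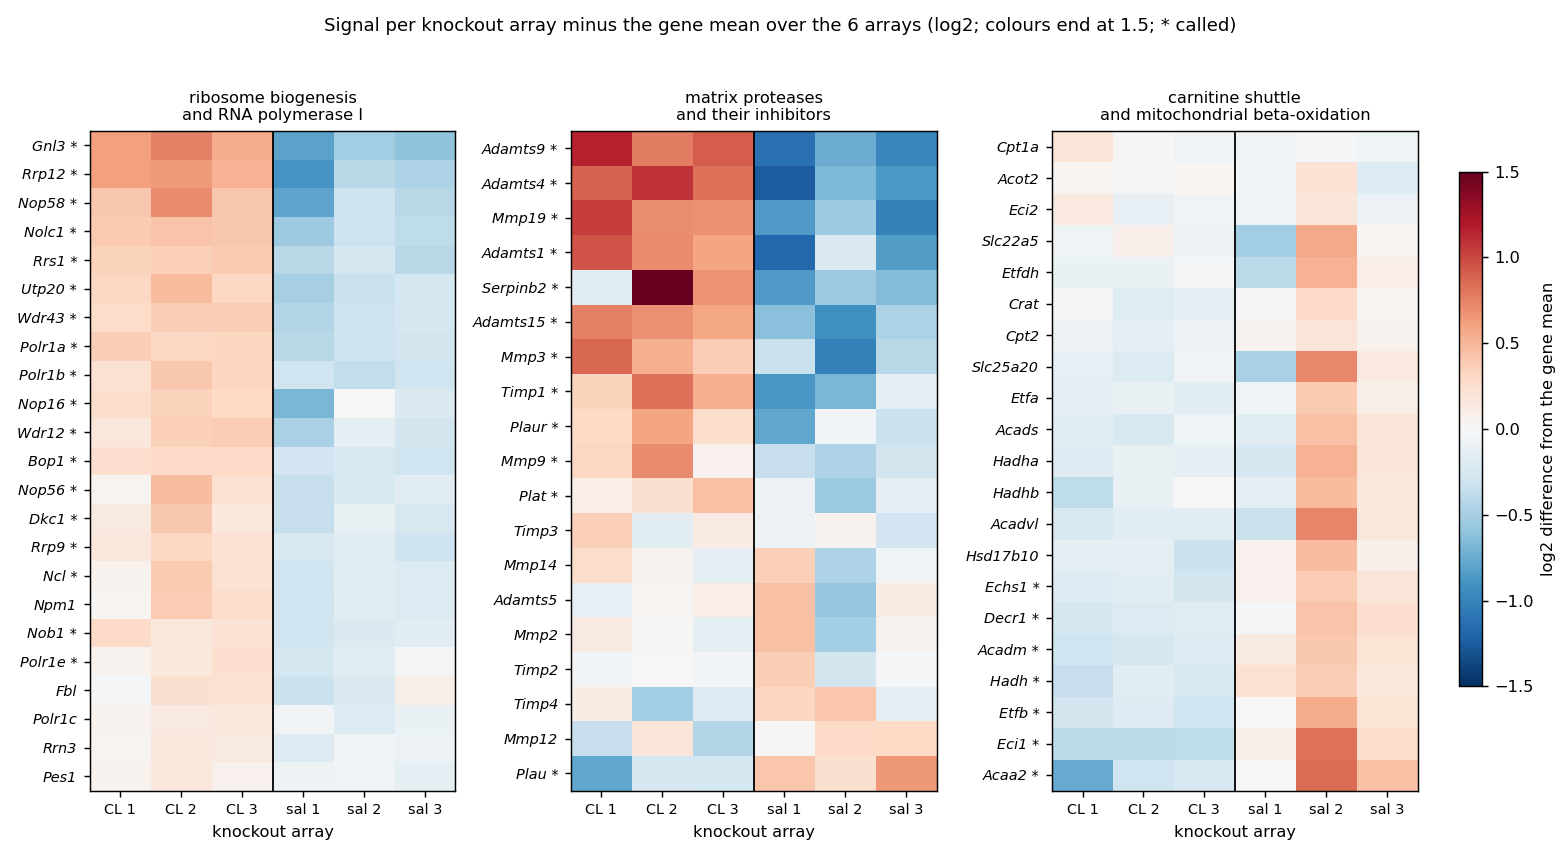
Log2 signal of each tested gene of 3 lists in the 6 knockout arrays, CL316243 arrays left of the line, minus the gene's mean over the 6 arrays (red higher, blue lower, colours end at 1.5 log2 units; stars mark called genes). All 18 called genes of ribosome biogenesis were higher after CL316243, and the 3 saline columns of the β-oxidation list were redder on average than the CL316243 columns, saline array 2 most.

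Transporters of lactate and glucose changed, some up and some down. The monocarboxylate transporter Slc16a1 was at 9.80, 10.10 and 9.97 after CL316243 and 8.48, 9.23 and 8.93 after saline (1.07 ± 0.16), and the glucose transporter Slc2a1 was at 8.48, 8.51 and 8.49 after CL316243, against 7.69, 7.63 and 7.76 (0.80 ± 0.14). With the phosphofructokinase Pfkp (0.57 ± 0.090) they were the 3 rises among 25 genes of glucose uptake and glycolysis (12%, against 7.75% of all genes). The insulin-responsive transporter Slc2a4 was the 1 fall (-0.73 ± 0.20, adjusted p up to 0.0920 without single arrays), which is 4% of the list, against 10.2% of all genes. Ppp1r3d, a subunit that directs protein phosphatase 1 to glycogen, was at 7.24, 7.60 and 7.05 after CL316243 and 9.02, 8.59 and 8.60 after saline (-1.44 ± 0.31). Its relative Ppp1r3b differed by -1.42 ± 0.39, and by -0.99 without saline array 1 (adjusted p = 0.0908).

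Some regulators of lipid synthesis fell, while most members of the lists were not called. Of 19 fatty acid synthesis genes 4 fell (21.1%, against 10.2% of all genes) and none rose, at a median of -0.32, and the 4 were the transcription factors Srebf1 (adjusted p = 0.00961) and Mlxipl (-0.74 ± 0.13), the lipogenic regulator Thrsp (-1.17 ± 0.26) and the lipase relative Pnpla3 (-1.08 ± 0.27, up to 0.0729 without single arrays). Srebf1 was at 8.40, 8.73 and 8.44 after CL316243, against 10.03, 9.11 and 9.45 after saline. The median of this list was -0.15 without saline array 1 and -0.57 without saline array 2. Of 15 cholesterol genes 4 fell (26.7%), led by Fdft1, the squalene synthase (-0.68 ± 0.12), with Stard4, Msmo1 and Mvk (-0.49, -0.47 and -0.42), whose calls were lost without single arrays (adjusted p up to 0.0507, 0.0964 and 0.0894). Without CL316243 array 1 there was 1 fall in this list, and without saline array 1 there were 2.

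Hormone, insulin signalling and clock genes had a few large falls. C1qtnf9, a secreted relative of adiponectin, was at 7.75, 7.29 and 7.81 after CL316243 and 9.46, 9.67 and 9.05 after saline (-1.78 ± 0.23, adjusted p = 7.45e-04). Leptin (Lep) was at 7.83, 7.96 and 7.88 after CL316243, against 9.29, 8.62 and 8.72 after saline (-0.99 ± 0.18), and Nampt, an enzyme of NAD synthesis that is also secreted, fell by 0.76 ± 0.14 on the log2 scale. These were the 3 falls among 18 adipokine and hormone genes (16.7%, against 10.2% of all genes), of which Fgf21 was the 1 rise (5.56%, against 7.75%). Irs3, an insulin receptor substrate found in rodents, was at 7.16, 7.32 and 7.24 after CL316243 and 8.63, 8.65 and 8.36 after saline (-1.31 ± 0.18). With Pik3r1 (-0.63 ± 0.15, up to 0.0682 without single arrays) it made up the calls among 22 insulin and IGF genes (9.09% lower, against 10.2% of all genes). Irs2 was not called (9.62, 9.42 and 9.41 against 8.11, 9.52 and 9.03, 0.60 ± 0.27, adjusted p = 0.148, and 0.0235 without saline array 2). In the clock list of 16 tested genes Arntl, which encodes BMAL1, rose (0.97 ± 0.13, 6.25% of the list, against 7.75% of all genes). The period gene Per3 (-1.18 ± 0.16) and the output factors Hlf (-0.81 ± 0.15), Tef (-0.61 ± 0.13) and Dbp (-0.67 ± 0.18, up to 0.104 without single arrays) fell. These falls were 25% of the list, against 10.2% of all genes.

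The genes of ribosome production rose nearly as a body. Of 23 tested genes of ribosome biogenesis and RNA polymerase I, 18 rose (78.3%, against 7.75% of all genes) and none fell, with a median of 0.55 and a positive difference in all 23. Gnl3, the nucleolar GTPase nucleostemin, was at 10.08, 10.23 and 10.02 after CL316243 and 8.66, 8.95 and 8.87 after saline (1.29 ± 0.13, adjusted p = 2.26e-04). Rrp12, a factor of ribosomal subunit export, was at 8.56, 8.59 and 8.47 after CL316243, against 7.06, 7.53 and 7.48 (1.19 ± 0.15). Nop58, a core protein of the particles that methylate ribosomal RNA, was at 8.02, 8.32 and 8.02 after CL316243, against 6.82, 7.30 and 7.19 (1.02 ± 0.15). None of the 3 overlapped between the groups, and neither did Nolc1 (0.82 ± 0.093). The count was 12 to 15 without single knockout arrays, at medians of 0.46 to 0.59. In wild types 9 of the 23 rose and 1 fell, at a median of 0.25, where 11.0% of all genes rose and 18.8% fell.

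Integrated stress response and amino acid transport genes also rose in part, with 11 of 24 higher (45.8%, against 7.75% of all genes) and a median of 0.39. Slc1a5, a glutamine transporter, was the 1 fall (-0.79 ± 0.11, 4.17% of the list, against 10.2%). Slc7a1, the carrier of arginine and lysine, was at 8.28, 8.20 and 8.12 after CL316243 and 6.78, 7.06 and 6.98 after saline (1.26 ± 0.11, adjusted p = 1.39e-04). Slc7a5, the light chain of the large neutral amino acid carrier, was at 8.18, 8.15 and 8.04 after CL316243, against 7.15, 7.10 and 7.48 (0.88 ± 0.11), and its heavy chain Slc3a2 rose by 0.50 ± 0.075. Neither Slc7a1 nor Slc7a5 overlapped between the groups. Atf4, the transcription factor of this response, rose by 0.54 ± 0.11, and its known targets Mthfd2 (0.73 ± 0.16), Chac1 (0.82 ± 0.20) and Ddit4 (0.69 ± 0.16) rose with it, but the calls of Chac1 and Ddit4 were lost without single arrays (adjusted p up to 0.0614 and 0.0544). The number of rises was 8 to 11 without single knockout arrays.

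The promoters of 4 named genes that rose are shown because they hold an exact copy of an element tied to these pathways in the 250 bases before the RefSeq start. Chac1, Fgf21 and Gadd45g held the ATF4 element, and the cholesterol hydroxylase Ch25h held a cAMP response element. The 4 stretches are printed 5′ to 3′ on the gene's strand, from RefSeq sequence of build GRCm38.p6, with the match in capitals (TGATGCAA, read here as its reverse complement TTGCATCA, and TGACGTCA). They lie at chr2:119350992-119351241 (plus strand, Chac1), chr7:45615491-45615740 (minus strand, Fgf21), chr13:51846425-51846674 (plus strand, Gadd45g) and chr19:34475149-34475398 (minus strand, Ch25h).
Chac1 promoter: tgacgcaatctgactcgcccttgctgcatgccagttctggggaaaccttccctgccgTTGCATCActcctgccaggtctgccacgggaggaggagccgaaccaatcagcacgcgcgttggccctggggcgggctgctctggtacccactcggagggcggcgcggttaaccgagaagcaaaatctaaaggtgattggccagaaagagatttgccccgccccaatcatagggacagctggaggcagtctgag
Fgf21 promoter: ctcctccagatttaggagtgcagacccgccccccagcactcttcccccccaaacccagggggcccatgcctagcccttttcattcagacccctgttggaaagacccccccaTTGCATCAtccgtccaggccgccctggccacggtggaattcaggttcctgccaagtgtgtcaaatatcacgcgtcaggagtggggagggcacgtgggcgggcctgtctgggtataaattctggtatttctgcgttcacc
Gadd45g promoter: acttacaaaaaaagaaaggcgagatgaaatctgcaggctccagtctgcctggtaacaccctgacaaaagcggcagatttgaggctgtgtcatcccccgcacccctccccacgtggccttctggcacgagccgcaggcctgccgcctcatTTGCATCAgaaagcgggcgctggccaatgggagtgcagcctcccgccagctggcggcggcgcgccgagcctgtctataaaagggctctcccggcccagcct
Ch25h promoter: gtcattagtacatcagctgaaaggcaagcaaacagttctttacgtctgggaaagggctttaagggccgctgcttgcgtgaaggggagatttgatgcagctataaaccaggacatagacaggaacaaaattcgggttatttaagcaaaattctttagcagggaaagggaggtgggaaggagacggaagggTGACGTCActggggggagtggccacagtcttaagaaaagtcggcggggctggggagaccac
The matches began 193, 139, 101 and 61 bases before the start of Chac1, Fgf21, Gadd45g and Ch25h. Over windows of 300 bases (250 before and 50 after the start, both strands searched), TGATGCAA stood in 1.30% of the windows of genes that rose, 1.06% of those that fell and 0.629% of those of all tested genes. TGACGTCA stood in 2.61%, 2.11% and 2.56% of the same sets, and in 1.83% of the windows of genes that rose by at least 2-fold. The shorter core TGACG, which every TGACGTCA also holds, stood in 32.5%, 28.2% and 27.6%, and in 26.8% of the windows of genes that rose by at least 2-fold. The heat shock element (GAA, TTC and GAA in turn, 2 bases apart) stood in 0.814%, 0.497% and 0.512%. For TGATGCAA and the heat shock element the share in the windows of 2-fold rises was 1.22% each (2 of 164). Over all windows of the RefSeq table, whether or not their gene was tested, the shares were 0.895% for TGATGCAA, 1.79% for TGACGTCA, 20.8% for TGACG and 0.603% for the heat shock element. The AP-1 site TGAGTCA, searched, like TGACG, after values had been seen, stood in 12.2% of the windows of genes that rose by at least 2-fold (20 of 164), against 5.7% for all rises, 3.29% for falls, 4.22% for all tested genes and 5.2% for all windows. These shares describe letters in windows and not bound sites, and a gene can have several windows.

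Some cytosolic chaperone genes rose, and none fell, where 10.2% of all genes did. Of 16 tested cytosolic heat shock genes 7 rose (43.8%, against 7.75% of all genes), at a median of 0.55. There were 5 rises without saline array 1, 6 without CL316243 array 2 and 7 without each of the other knockout arrays. Hsph1, a large Hsp70 relative that recharges Hsp70, was at 9.14, 9.65 and 9.38 after CL316243 and 7.39, 7.68 and 7.75 after saline (1.78 ± 0.16, adjusted p = 1.39e-04). The co-chaperones Bag3 (1.20 ± 0.15) and Dnajb1 (1.13 ± 0.14) and Hsp90aa1 (0.94 ± 0.14) rose too. In the endoplasmic reticulum, Xbp1, a factor of the unfolded protein response, was at 10.14, 10.00 and 9.82 after CL316243, against 9.38, 9.45 and 9.40 (0.58 ± 0.095). With the chaperone Hspa5 (0.53 ± 0.090) it made up the 2 rises among 19 tested members (10.5%, against 7.75% of all genes).

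Secreted matrix and matrix-cutting genes were the second set with large rises. Of 19 tested matrix proteases and inhibitors, 11 rose (57.9%, against 7.75% of all genes) and 1 fell (5.26%, against 10.2%). The median was 0.72, with 7 rises left without CL316243 array 2 and 8 or 9 without each of the other knockout arrays. The proteoglycan-cutting enzymes Adamts9 and Adamts4 led. Adamts9 was at 9.60, 9.22 and 9.35 after CL316243 and 7.33, 7.70 and 7.47 after saline (1.89 ± 0.16), and Adamts4 was at 8.13, 8.33 and 8.07 after CL316243, against 6.00, 6.57 and 6.39 (1.86 ± 0.23). Mmp19 (1.61 ± 0.19), Adamts1 (1.50 ± 0.24), Adamts15 (1.35 ± 0.12), the stromelysin Mmp3 (1.18 ± 0.21) and the inhibitor Timp1 (1.14 ± 0.25) followed. The fall was that of the plasminogen activator Plau (-0.87 ± 0.21, adjusted p up to 0.0666 without single arrays). Among 12 fibroblast markers there was 1 rise (8.33%, against 7.75% of all genes), that of Pdgfra (0.44, up to 0.131 without single arrays). Their median was 0.0035.

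Some hyaluronan-related genes rose, as Prg4 did. Of 25 tested members of that list 10 rose (40%, against 7.75% of all genes), at a median of 0.19. Xylt2 was the 1 fall (-0.42, 4% of the list, against 10.2%). Without single knockout arrays 8 to 10 rose, and without saline array 2 the median was 0.066 with 2 falls. Ugdh makes the UDP-glucuronate from which hyaluronan and other glycosaminoglycans are built, and was at 10.81, 10.15 and 10.33 after CL316243 and 8.20, 7.99 and 8.25 after saline (2.28 ± 0.16, adjusted p = 3.90e-05). Ptx3 and Tnfaip6, whose proteins crosslink hyaluronan at inflamed sites, were also higher. Ptx3 was at 9.42, 10.56 and 10.18 after CL316243 and 6.73, 7.75 and 8.20 after saline (2.49 ± 0.48), and Tnfaip6 was at 8.62, 9.43 and 8.93, against 7.06, 7.34 and 7.65 (1.64 ± 0.28). The synthase Has1 (0.84 ± 0.11), the hyaluronan-binding proteoglycan Vcan (1.29 ± 0.26) and the syndecan Sdc4 (0.83 ± 0.18) rose, while the hyaluronan receptor Cd44 (0.78 ± 0.24) lost its call without single arrays (up to 0.148).

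The thrombospondins, matrix proteins that bind growth factors and cell receptors, were among the largest rises. Thbs1 was at 11.71, 11.51 and 11.54 after CL316243 and 8.78, 10.14 and 9.82 after saline (2.01 ± 0.36, adjusted p = 0.00408). Thbs2 was at 12.10, 10.77 and 11.26 after CL316243, against 9.69, 9.09 and 9.23 (2.04 ± 0.35). Thbs4 was at 9.99, 9.59 and 8.04 after CL316243, against 7.12, 7.74 and 7.20, and its difference of 1.85 ± 0.49 (adjusted p = 0.0251) was not called without single arrays (up to 0.0988). None of the 3 overlapped between the groups.

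**Figure D3:**
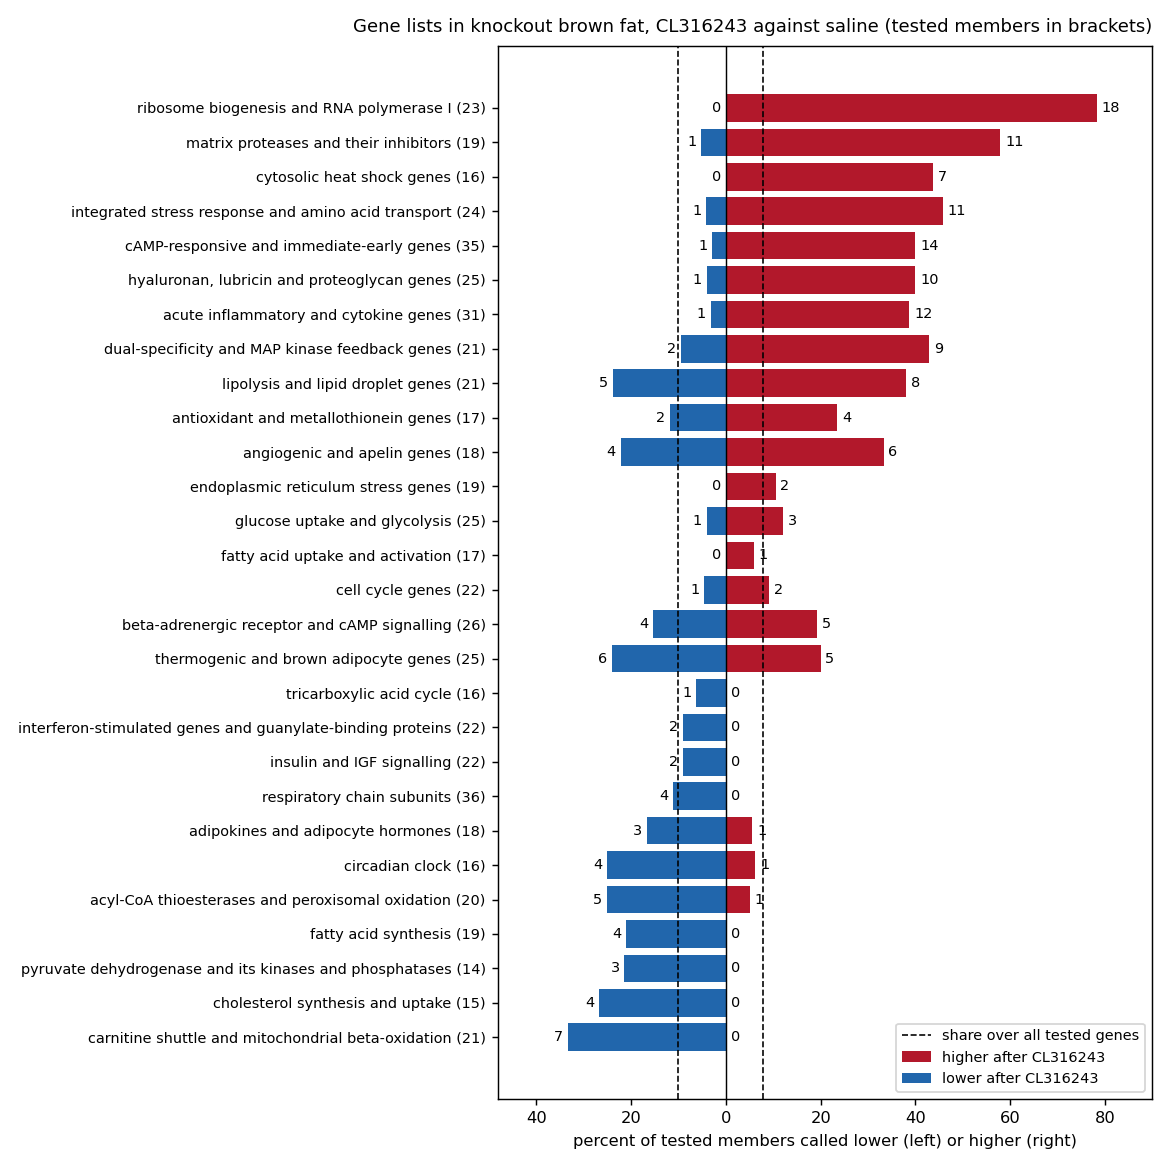
Share of the tested members of 28 gene lists called higher (right, red) or lower (left, blue) after CL316243 in knockouts, with the number of genes beside each bar and the shares over all tested genes as dashed lines (7.75% higher and 10.2% lower). Ribosome biogenesis (18 of 23) and matrix proteases (11 of 19) have the longest bars to the right, and the β-oxidation list (7 of 21) the longest to the left.

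Inflammatory and cytokine genes rose in part. Of 31 tested members 12 rose (38.7%, against 7.75% of all genes), with a median of 0.51. The acute phase gene Hp was the 1 fall (-0.68 ± 0.11, 3.23% of the list, against 10.2%). Il33, an alarmin cytokine of stromal cells, was at 8.64, 9.87 and 9.64 after CL316243 and 6.83, 6.92 and 7.33 after saline, a 5.13-fold rise (2.36 ± 0.34, adjusted p = 0.00141). The interleukin-1 receptor Il1r1 was at 9.57, 9.85 and 9.82 after CL316243, against 7.84, 8.12 and 8.08 (1.73 ± 0.19). The endothelial adhesion molecule Selp (1.50 ± 0.14), the interleukin-4 receptor Il4ra (1.26 ± 0.18), the oncostatin M receptor Osmr (1.09 ± 0.12) and the cytokine signalling inhibitor Socs3 (0.87 ± 0.15) rose. The monocyte chemokine Ccl12 was at 7.24, 7.81 and 7.55 after CL316243 and 5.69, 6.43 and 6.68 after saline (1.27 ± 0.28), while Ccl7 (1.39 ± 0.36) and the eosinophil chemokine Ccl24 (0.97 ± 0.25) lost their calls without single arrays (0.0801 and 0.0794 at most). Ch25h, whose product 25-hydroxycholesterol acts on immune cells, was at 7.80, 8.46 and 8.49 after CL316243, against 6.50, 7.35 and 7.23 (1.23 ± 0.27), and the oxidised LDL receptor Olr1 was at 6.69, 7.24 and 6.97, against 4.83, 5.47 and 5.06 (1.85 ± 0.19). Metallothioneins and oxidant-induced genes rose too. Mt2 was at 11.92, 11.84 and 11.84 after CL316243 and 9.86, 10.67 and 10.39 after saline (1.56 ± 0.21). With Mt1 (1.13 ± 0.19), the haem oxygenase Hmox1 (1.42 ± 0.21) and Srxn1 (0.96 ± 0.21), it made up the 4 rises among 17 antioxidant genes. Gpx3 (-0.82 ± 0.20, up to 0.0548 without single arrays) and Gsta3 (-0.65 ± 0.18, up to 0.109) fell. Of that list 23.5% rose and 11.8% fell, against 7.75% and 10.2% of all genes.

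Markers of immune cells moved with these genes in part. Of 8 tested neutrophil markers, Retnlg (1.34 ± 0.26) and Mmp8 (1.26 ± 0.32) rose (25%, against 7.75% of all genes), and the list median was 0.88. The mean log2 signal of the list was 6.04, 6.59 and 6.35 after CL316243 against 5.56, 5.64 and 5.88 after saline, so the groups did not overlap. Of its 10 markers with a row, 2 lay under the floor (the signal that 25% of the named genes of an array do not exceed) in all arrays of each knockout group. Of 12 macrophage markers, the endotoxin co-receptor Cd14 (0.97 ± 0.15) and the scavenger receptors Cd163 (0.85 ± 0.26) and Mrc1 (0.82 ± 0.19) rose (25%, against 7.75% of all genes). The list median was -0.10, with list means of 9.20, 9.32 and 9.09 after CL316243 against 9.20, 8.85 and 9.27 after saline. Mmp8, Cd163 and Mrc1 lost their calls without single arrays (adjusted p at most 0.0687, 0.147 and 0.0560), and 1 macrophage marker rose without CL316243 array 2 or saline array 2. No macrophage marker lay under the floor throughout a knockout group. The part of these cells in the inflammatory rises was not tested.

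The largest pair of falls were those of immunoglobulin kappa variable segments. Igkv6-25 was at 7.26, 8.22 and 6.10 after CL316243 and 9.32, 11.72 and 10.71 after saline (-3.39 ± 0.59, adjusted p = 0.00373), and the constant region Igkc was at 8.60, 8.84 and 8.66, against 9.14, 10.74 and 10.93 (-1.57 ± 0.37, up to 0.0519 without single arrays). Neither overlapped between the groups. In wild types Igkv6-25 was at 5.85, 5.46 and 5.29 after CL316243 and 5.88, 6.76 and 5.86 after saline, under all 3 saline arrays of knockouts, and the difference of its effect between genotypes was not called (-2.76 ± 0.84, adjusted p = 0.127). A further variable segment, of family 4, fell by 2.67 ± 0.40 on the log2 scale. Variable segments of this family are similar in sequence, and which of them the probes read is uncertain. Of the 12 tested B-cell and plasma-cell markers, Tnfrsf17, the plasma-cell receptor BCMA, was lower (-0.59 ± 0.12) and Sdc1, which other cells express too, higher (0.58, up to 0.0761 without single arrays). Each made up 8.33% of the list, where 10.2% of all genes were lower and 7.75% higher. The list median of -0.14 turned on single arrays, at -0.41 with 2 falls without CL316243 array 2 and at 0.085 without CL316243 array 1. Of the T-cell and natural killer markers, the natural killer receptor Ncr1 was at 5.60, 5.66 and 5.86 after CL316243 and 7.54, 7.40 and 7.83 after saline (-1.89 ± 0.25). Eomes was the other fall among 12 (-0.47 ± 0.12, up to 0.0705 without single arrays). The 2 made up 16.7% of the list, against 10.2% of all genes. Interferon-stimulated genes had 2 falls among 22 (9.09%, against 10.2% of all genes), and their median was -0.46. The falls, of Irf7 and Irf8 (-0.68 and -0.39), were both lost without single arrays.

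Vessel genes also changed. Besides Aplnr, Angpt1, a ligand that stabilises vessels, was at 7.04, 7.53 and 7.47 after CL316243 and 8.52, 9.08 and 8.68 after saline (-1.42 ± 0.26), and its receptor Tek fell by 0.68 ± 0.14 on the log2 scale. Angpt2, the antagonist of Angpt1, rose by 0.59 ± 0.085. The hypoxia factor Hif1a (0.88 ± 0.17) and the vasodilator peptide gene Adm (0.87 ± 0.16) rose, but the growth factor Vegfa was not called (10.12, 9.67 and 9.69 against 9.87, 10.39 and 9.82, -0.20 ± 0.16, adjusted p = 0.428). In all, 6 of 18 angiogenic genes rose (33.3%, against 7.75% of all genes) and 4 fell (22.2%, against 10.2%). Without CL316243 array 1 or saline array 1, 3 rose, and without each of the others 4 or 5. There were 3 falls without each of the knockout arrays. Of 12 endothelial markers 3 rose (Eng, Cdh5 and Pecam1, by 0.57, 0.34 and 0.32), which is 25%, against 7.75% of all genes. Another 2 fell (Tek and Emcn, by 0.68 and 0.53), which is 16.7%, against 10.2%. The list median was 0.20.

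Several of the largest changes were in genes outside these groups. Fam110c rose by 2.32 ± 0.17 (7.57, 7.76 and 7.65 after CL316243, against 5.12, 5.61 and 5.28 after saline), and 2 of its saline arrays lay under the floor, so the size is uncertain. The protein kinase A anchor Akap2 (2.26 ± 0.22) and the imprinted gene Peg10 (2.17 ± 0.23) rose, as did Wdr92 (1.95 ± 0.19). Csprs, with 7 array rows, rose by 2.10 ± 0.32 in its brightest row but was not called with the mean of its rows (0.36, adjusted p = 0.226). Nnat, an imprinted gene of adipose tissue and brain, was at 9.23, 9.33 and 9.44 after CL316243 and 10.34, 11.05 and 10.49 after saline (-1.29 ± 0.18). Hoxc6, a positional gene of white fat depots, fell by 1.07 ± 0.10 on the log2 scale. Tnfsf10, the death ligand TRAIL, fell by 1.67 ± 0.22 in its brightest row and by 0.57 with the mean of its rows (adjusted p = 0.0558). The falls of Zfp820 (-1.94 ± 0.44), Zfp964 (-1.82 ± 0.36) and Abcg3 (-1.45 ± 0.22) had CL316243 arrays under the floor. The same held for Tnfrsf17, and for 1 or 2 saline arrays of Olr1, Mmp8, Retnlg, Csn3 and Lrat. Unnamed or little studied genes among the largest changes were A530006G24Rik (3.04 ± 0.36, and 1.54 with the mean of its rows), A730049H05Rik (1.95 ± 0.22, 1 saline array under the floor), A530020G20Rik (-1.79 ± 0.18) and Cd300ld3 (-1.60 ± 0.30). Of the remaining marker lists, the milk protein gene Csn3 (1.30 ± 0.38), the myelin gene Mbp (0.33 ± 0.084) and Trim14 (-0.30 ± 0.095) were called, and each lost its call without single arrays (adjusted p at most 0.124, 0.0891 and 0.172). Trim14, Lep, Nnat and Hoxc6 were the 4 falls among 10 tested white adipocyte markers (40%, against 10.2% of all genes), at a list median of -0.075. In wild types 4 of these 10 markers were lower too, where 18.8% of all genes were.

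The response of knockouts was set beside that of wild types, whose 6 arrays it does not share. In wild types 4735 genes (29.8%) were called, 1743 higher (11.0%) and 2992 lower (18.8%). Of the 1232 rises in knockouts, 710 (57.6%) were also rises in wild types, which is 40.7% of the wild-type rises. Of the 1619 falls in knockouts, 1085 (67.0%) were falls in wild types, 36.3% of those. In all, 47 genes were called in both genotypes with opposite sign. The difference itself, the effect in knockouts minus the effect in wild types, was called for 324 genes (2.04%), 123 positive (0.774%) and 201 negative (1.26%), a number that ran from 128 (without wild-type CL316243 array 2) to 399 when single arrays were left out. Of the genes called in knockouts, 156 had a called difference. The rises held 73 positive and 42 negative differences, and the falls 35 negative and 6 positive ones.

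**Figure D4:**
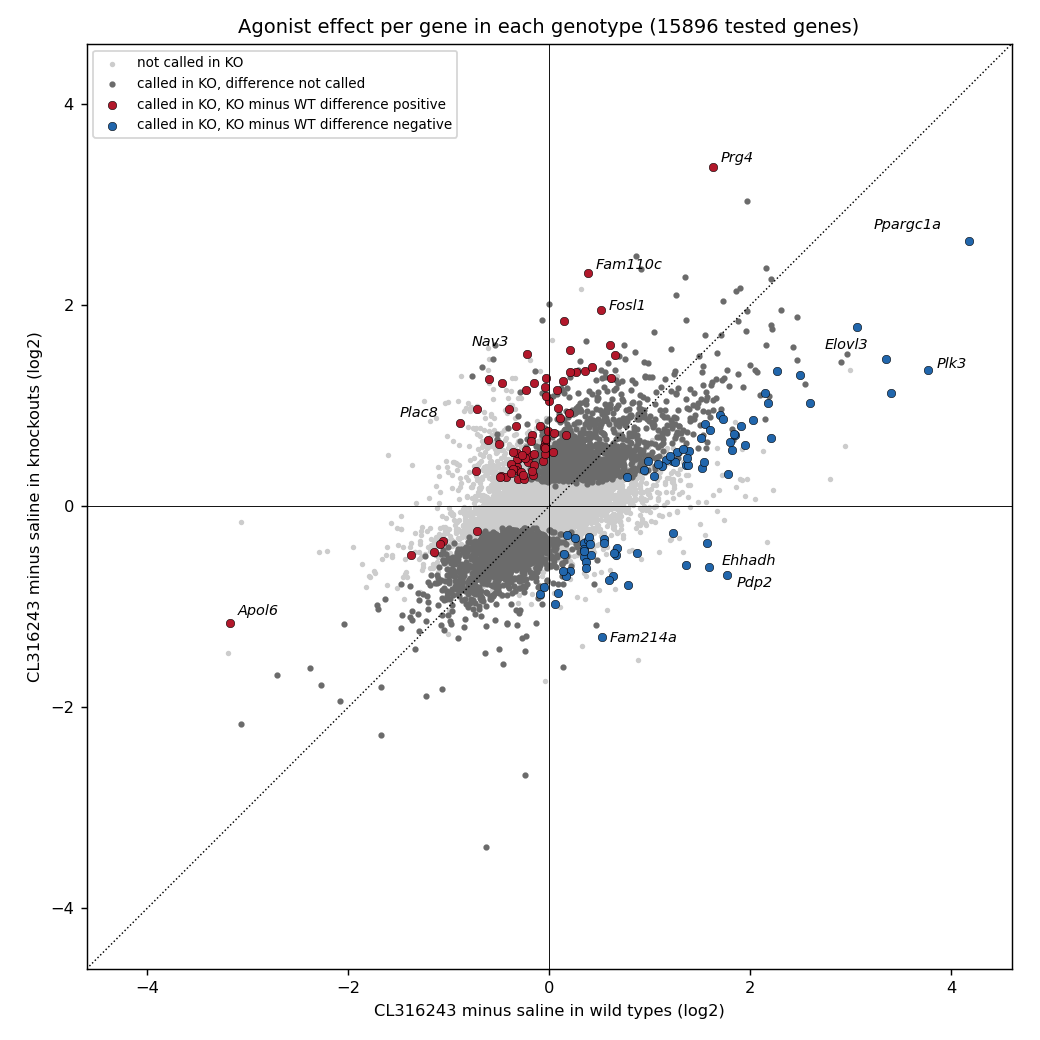
Effect of CL316243 per gene (log2 difference from saline) in knockouts (vertical) against wild types (horizontal) for 15896 genes, with equal effects on the dotted line. Red and blue points are the genes called in knockouts whose effect differed between the genotypes; Prg4 and Fosl1 lie above the line, and Ppargc1a, Plk3 and Elovl3 below it.

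Genes whose rise was larger in knockouts included matrix, immune and transcription factor genes. The rise of Prg4 exceeded that in wild types by 1.75 ± 0.19 (adjusted p = 0.00209), where its signal was 8.84, 8.76 and 8.88 after CL316243 and 6.94, 7.30 and 7.37 after saline. For Fosl1 the difference was 1.44 ± 0.25 (adjusted p = 0.0170), with a rise of 0.51 ± 0.18 in wild types. Its wild-type signals were 8.53, 8.13 and 8.22 after CL316243 and 7.66, 7.52 and 8.15 after saline. Its mean after saline was lower in knockouts (6.71) than in wild types (7.78), while the means after CL316243 were 8.67 and 8.29. Fam110c (1.94 ± 0.24), Nav3, which binds microtubules (1.74 ± 0.25), Olr1 (1.70 ± 0.28), Ch25h (1.70 ± 0.38), Ccl12 (1.87 ± 0.39), Cd14 (1.36 ± 0.21), Osmr (1.12 ± 0.17), Mt2 (1.35 ± 0.30), Acsl4 (1.10 ± 0.17), Adamts15 (0.99 ± 0.17), Slc7a5 (0.77 ± 0.16) and Xbp1 (0.62 ± 0.13) also had positive differences. None of these but Prg4, Fosl1 and Adamts15 was called as higher in wild types. Of the ribosome biogenesis genes, Dkc1, Polr1b and Polr1e had positive differences (0.79, 0.68 and 0.59), and the knockout calls of Dkc1 and Polr1e were lost without single arrays (adjusted p at most 0.0863 and 0.143). Apol6 fell in both genotypes, by less in knockouts (difference 2.02 ± 0.33).

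Other genes rose less in knockouts, or fell where they rose in wild types. Ppargc1a rose by 1.54 ± 0.33 less on the log2 scale (adjusted p = 0.0433), against a wild-type rise of 4.17 ± 0.24. The difference was -2.41 ± 0.28 for Plk3, -1.89 ± 0.34 for Elovl3, -1.57 ± 0.24 for Acot4, -1.53 ± 0.26 for Atf3, -1.17 ± 0.22 for Klf4, -1.14 ± 0.21 for Cebpb, -1.27 ± 0.22 for Hsph1, -1.02 ± 0.20 for Dnajb1 and -1.15 ± 0.13 for Adcy3, all of which rose in both genotypes. Among heat shock genes Dnaja1 and Ahsa2 also had negative differences (-1.29 and -1.61). In wild types 13 of the 16 heat shock genes rose, where 11.0% of all genes did, at a median of 1.24. Irs2, not called in knockouts, had a difference of -2.35 ± 0.38. Genes lower after CL316243 in knockouts and higher in wild types included Pdp2 (-0.69 and 1.77, difference -2.45 ± 0.22), Ehhadh (-0.61 and 1.59, -2.20 ± 0.25), Prdm16 (-0.58 and 1.36, -1.95 ± 0.16), the receptor kinase Grk3 (-0.70 and 0.63, -1.33 ± 0.25), the coenzyme A synthesis gene Pank1 (-0.78 and 0.79, -1.57 ± 0.34), Fam214a (-1.30 and 0.52, -1.82 ± 0.23) and the cell cycle linker Cables1 (-0.37 and 1.57, -1.94 ± 0.13). The unnamed gene 3930402G23Rik rose in both, by 1.12 in knockouts and 3.40 in wild types. Plac8 was higher in knockouts (8.39, 8.24 and 7.90 after CL316243, against 7.12, 7.39 and 7.53 after saline, 0.83 ± 0.13) and lower in wild types (-0.89 ± 0.13), a difference of 1.72 ± 0.19 (adjusted p = 0.00189), and the retinol esterifying gene Lrat moved likewise (0.66 and -0.61, difference 1.27 ± 0.25). The knockout calls of Grk3, Pank1, Cables1 and Lrat were lost without single arrays (adjusted p up to 0.0697, 0.159, 0.0820 and 0.0994). Those of Pdp2 and Ehhadh were lost likewise (up to 0.0596 and 0.118), and Prdm16 was not called in knockouts with the mean of its rows.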

How the data were processed

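RNA of interscapular brown fat from 12 mice, 3 in each of 4 groups, was hybridised to Affymetrix mouse exon arrays, 1 array a mouse. The authors deposited log2 signals per transcript cluster, summarised by RMA in Partek with build mm9 per the submitters' processing notes, whose versions are not given in the sources used here. RMA makes the arrays' distributions alike, so that differences are relative to the other genes, and small differences of low signals are compressed. Arrays carry no read depth, and the number of mice limits the precision. The labels number the mice within a group and call them biological replicates.

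From these values, 25539 of 115830 rows were assigned to 1 gene through GEO's platform annotation (2300 rows with several genes were left out, and 24941 Entrez identifiers matched a RefSeq table, which changed 0 symbols), and for each of 20259 genes the row with the highest mean over the 12 arrays was kept. A gene was tested where it exceeded the 25th percentile of an array's named genes in at least 3 arrays. Contrasts of 4 group means were fitted on all 12 arrays with limma 3.58.1 (R 4.3.3) and Benjamini-Hochberg adjustment over 15896 genes, and a gene is called at an adjusted p under 0.05. Every ± after a difference is the standard error of that fit, with 3 arrays a group, and every adjusted p is limma's. Figures and summaries used Python 3.11.15, pandas 2.3.3 and matplotlib 3.10.9. In simulated data, 25%, 88.5% and 97.5% of 200 genes changed by 0.5, 1 and 2 log2 units were recovered in the knockout comparison over 15896 genes. There were 3, 5 and 8 false calls. Far fewer genes were changed there than the 2851 called in the data, and the adjustment depends on that number, so these shares need not hold for the data.

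The members and lists were chosen with earlier results of these data known, so no list is independent evidence of its direction. Named are the 20 largest rises and falls without overlap, a panel, up to 4 called members of each list, the 10 called genes with the largest difference between genotypes in each direction, and up to 6 of opposite sign. Another 62 genes, mostly further members of lists, were chosen after their values were seen. Gdf15 had no row of its own and Il6 did not pass the filter. Replicate numbers were not used to pair mice. Between groups, deviations of same-numbered arrays correlated between -0.298 and 0.476, and those of differently numbered arrays between -0.519 and 0.408. These ranges cannot show whether same-numbered mice shared a batch. Alternatives were other scalings, filters, row choices, moderation, a muscle covariate, a replicate block, the 6 knockout arrays alone, a stricter threshold and each array left out.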

Additional observations from a re-analysis of the deposited data

Results flagged for a closer look

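The effect of CL316243 differed between knockouts and wild types for 49 of the genes named, by the test of the difference itself (limma, adjusted over all 15896 genes). Values are the effect in knockouts minus the effect in wild types, in log2 units. Positive differences were found for Apol6 (2.02), Fam110c (1.94), Ccl12 (1.87), Gbp2 (1.83), Prg4 (1.75), Nav3 (1.74), Plac8 (1.72), Ch25h (1.70), Olr1 (1.70), Ccl24 (1.69), Ccl3 (1.50), Fosl1 (1.44), Cd14 (1.36), Mt2 (1.35), Lrat (1.27), Osmr (1.12), Acsl4 (1.10) and Adamts15 (0.99). Smaller positive ones were those of Dkc1 (0.79), Slc7a5 (0.77), Polr1b (0.68), Xbp1 (0.62) and Polr1e (0.59). Negative differences were found for Pdp2 (-2.45), Plk3 (-2.41), Irs2 (-2.35), 3930402G23Rik (-2.28), Ehhadh (-2.20), Prdm16 (-1.95), Cables1 (-1.94), Elovl3 (-1.89), Fam214a (-1.82), Ahsa2 (-1.61), Pank1 (-1.57), Acot4 (-1.57), Ppargc1a (-1.54), Atf3 (-1.53), Grk3 (-1.33), Dnaja1 (-1.29), Hsph1 (-1.27), Klf4 (-1.17), Kcnk3 (-1.15), Adcy3 (-1.15), Cebpb (-1.14) and Dnajb1 (-1.02). Smaller negative ones were those of Ebf2 (-0.86), Aqp7 (-0.84), Pfkp (-0.76) and Slc3a2 (-0.70). The genes were picked in part for this difference, so their number among those named says nothing of its frequency, which over all tested genes was 2.04%.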

How the results depend on the processing

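Of 210 named genes called in knockouts, 127 kept their call under every alternative run, 83 lost it under at least 1, 71 of them when a knockout array was left out, and none changed sign. The knockout counts (2851 calls, 1232 higher, 1619 lower) were 1119, 615 and 504 at an adjusted p under 0.01, and 1043 genes were lower with arrays centred on their medians. Over the arrays left out in turn they ran from 1591 to 3358 calls, 815 to 1419 higher and 776 to 1939 lower. The wild-type counts were 2629, 1115 and 1514 at the stricter threshold, and 1641 genes were lower after centring, which left 60.3% of the wild-type calls as rises, against 36.8% as deposited. The counts of the difference between genotypes were 52, 11 and 41 at the stricter threshold and 497 calls (212 positive) with the filter at the 50th percentile. Without single arrays they ran from 128 to 399 calls, 42 to 117 positive and 85 to 282 negative. Positive differences were 38.0% of the calls as deposited and 24.1% after centring. The replicate block gave 2796 calls in knockouts, 4662 in wild types and 292 for the difference. Some uncalled differences changed sign when single arrays were left out: Nr4a1 ran between -0.86 and 0.25, Ucp1 between -0.45 and 1.50, Dio2 between -0.23 and 1.07, Pdk4 between -0.061 and 1.07, and Dnaja1 between -0.084 and 0.21, with the lowest values of Nr4a1, Ucp1, Dio2 and Pdk4 without knockout saline array 1. The cause was not tested. With 3 arrays a group a gene that was not called may still have changed.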

Other observations

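Among the angiogenic genes not yet described, the placental growth factor Pgf (0.67 ± 0.18, adjusted p = 0.0270), the VEGF receptor Flt1 (0.49 ± 0.12, adjusted p = 0.0199) and the oxygen sensor Egln3 (0.53 ± 0.15, adjusted p = 0.0339) were higher after CL316243 in knockouts and the coreceptor Nrp1 was lower (-0.34 ± 0.089, adjusted p = 0.0234, all limma). Each lost its call when single knockout arrays were left out (adjusted p at most 0.0967, 0.0814, 0.115 and 0.0748).

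In knockouts, 2 of 22 interferon-stimulated genes and guanylate-binding proteins were lower after CL316243 (9.09%, against 10.2% of all genes) at a median of -0.46, and none was after the arrays were centred on their medians. In wild types 16 of the 22 were lower at a median of -0.99, where 18.8% of all genes were lower. Gbp2, a guanylate-binding GTPase, differed by -0.46 ± 0.23 in knockouts (adjusted p = 0.198) and by -2.29 in wild types, and it was the 1 member of the list whose difference between genotypes was called (1.83, adjusted p = 0.0186, limma). The chemokine Ccl3 differed by 0.40 ± 0.23 in knockouts (adjusted p = 0.276) and by -1.11 in wild types.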
